A study of Mus musculus with 30 samples.

Results

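The proteasome genes were taken as the RefSeq protein-coding genes of mm10 whose symbol begins with Psm, a letter from a to g and a digit, which gave 51 of 21887 genes. A listed region was given to such a gene when it overlapped the gene span extended by 2 kb on each side, or when an end of the gene was the nearest protein-coding gene end within 100 kb of the region's midpoint. By this rule 88 of the 22399 listed regions belonged to the group, and 39 of the 51 genes had at least 1. The symbol rule also takes in Psmc3ip, whose product acts in meiotic recombination, and Psme3ip1, whose product binds the activator encoded by Psme3. Neither is a proteasome subunit, so 49 of the 51 symbols stand for subunits, assembly factors, activators and the inhibitor of the particle.

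The study profiled chromatin of sorted brain microglia from C57BL/6J mice aged 8 weeks, given tamoxifen on 7 consecutive days. All mice carried the tamoxifen-inducible Tmem119-CreERT2 allele, with either Mir137+/+ (cWT) or Mir137loxP/loxP (cKO), so recombination was limited to cells in which Tmem119 drives Cre. CUT&Tag, in which an antibody steers a transposase to its target on chromatin, was run with antibodies against H3K27ac (active enhancers and promoters), H3K4me3 (active promoters), Pu.1 (a transcription factor of myeloid cells), RNA polymerase II (Pol II) and its serine-5 phosphorylated form (Pol II Ser5P, found near gene starts). The labels give 3 replicates for each of the 10 groups of genotype and antibody and about 100000 cells per genotype, and the design text names 4 mice without tying them to replicates, so replicates may not be separate animals. For each group 1 list of regions specific to its genotype was analysed, and the 10 lists ran from 44 to 6995 regions. Replicates have no values of their own in these lists. The counts below therefore describe the lists, with no test and no comparison with replicate spread, and read depth is unknown.

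The proteasome is the barrel-shaped protease that degrades proteins tagged with ubiquitin. Its core stacks rings of alpha subunits, which form the gate, around rings of beta subunits, some of which cut peptide bonds. A regulatory cap, made of a base with ATPases and a lid, recognises, unfolds and feeds in the substrate. Cells exposed to interferon replace the catalytic beta subunits by inducible ones, giving the immunoproteasome, which shapes the peptides shown on MHC class I. Microglia, as macrophages of the brain, can make this form.

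Promoter sequences are shown for 6 members, each with at least 1 listed region on the window from 250 bases before to 50 bases after the annotated start. Psma5 and Psmb3 had regions of 3 and 4 lists on the window, and Psme2 had a Pu.1 region there. Psmb9 was the inducible subunit with polymerase regions there. Psmd4 had regions in more lists than any other member, and Psmc5 had both polymerase regions and a match to part of the miR-137 seed. The 250 bases before the start are printed 5′ to 3′ on the strand of the gene, from RefSeq on GRCm38.p6. Capitals mark matches on either strand to the 7 motifs described further on; the Psma5 stretch holds none. They lie at chr3:108256676-108256925 (plus strand, Psma5), chr11:97703184-97703433 (plus, Psmb3), chr17:34187331-34187580 (minus, Psmb9), chr14:55591102-55591351 (minus, Psme2), chr3:95042615-95042864 (minus, Psmd4) and chr11:106255935-106256184 (plus, Psmc5).
Psma5: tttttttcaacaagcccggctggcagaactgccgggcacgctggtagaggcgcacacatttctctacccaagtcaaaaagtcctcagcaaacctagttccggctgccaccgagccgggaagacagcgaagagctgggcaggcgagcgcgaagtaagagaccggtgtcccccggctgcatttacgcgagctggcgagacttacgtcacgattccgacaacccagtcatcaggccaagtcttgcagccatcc
Psmb3: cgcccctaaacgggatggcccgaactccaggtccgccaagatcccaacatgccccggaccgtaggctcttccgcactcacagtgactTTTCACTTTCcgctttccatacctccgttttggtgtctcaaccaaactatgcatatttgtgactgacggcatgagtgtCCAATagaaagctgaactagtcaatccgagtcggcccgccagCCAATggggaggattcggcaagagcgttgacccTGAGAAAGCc
Psmb9: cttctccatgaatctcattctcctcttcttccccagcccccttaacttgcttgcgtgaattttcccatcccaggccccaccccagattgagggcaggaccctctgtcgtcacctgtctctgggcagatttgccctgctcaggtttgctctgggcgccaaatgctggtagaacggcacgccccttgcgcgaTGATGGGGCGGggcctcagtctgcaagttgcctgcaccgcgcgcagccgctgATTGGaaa
Psme2: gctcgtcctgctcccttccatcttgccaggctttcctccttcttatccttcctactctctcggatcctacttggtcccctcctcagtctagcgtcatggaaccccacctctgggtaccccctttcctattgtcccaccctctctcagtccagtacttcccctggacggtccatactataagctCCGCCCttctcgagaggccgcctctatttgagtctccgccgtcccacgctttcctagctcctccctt
Psmd4: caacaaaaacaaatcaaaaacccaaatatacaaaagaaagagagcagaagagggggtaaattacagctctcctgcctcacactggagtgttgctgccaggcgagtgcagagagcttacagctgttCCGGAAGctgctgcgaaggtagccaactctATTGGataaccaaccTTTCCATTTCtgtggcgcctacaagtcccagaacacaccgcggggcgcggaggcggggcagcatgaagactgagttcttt
Psmc5: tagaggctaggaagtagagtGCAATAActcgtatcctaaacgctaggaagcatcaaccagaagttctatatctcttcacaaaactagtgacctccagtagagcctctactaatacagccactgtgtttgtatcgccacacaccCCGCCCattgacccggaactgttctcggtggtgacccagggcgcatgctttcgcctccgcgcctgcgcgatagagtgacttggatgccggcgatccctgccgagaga

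The mature microRNA of the floxed gene is shown with its seed, bases 2 to 8, in capitals. A match to its first base and to the seed without base 8, GCAATAA, was among the motifs sought. The microRNA is the 3p arm of miR-137, encoded at chr3:118433901-118433923 on the plus strand.
mmu-miR-137-3p: uUAUUGCUuaagaauacgcguag

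The first question was where proteasome genes stood in the lists of each genotype. Members were found mostly in 3 lists: cWT H3K27ac, cKO Pol II and cKO Pol II Ser5P. The cKO Pol II Ser5P list held 23 of 51 members (45.1%), against 23.5% of all protein-coding genes. The cWT H3K27ac list held 21 members (41.2%), against 22.1% of genes, and the cKO Pol II list held 15 (29.4%), against 18.7%. In any list there were 39 members (76.5%), against 44.0% of genes. Among genes with a region in any list the shares lay close together: 59% of the listed members and 53.3% of the listed genes were in cKO Ser5P, 53.8% and 50.2% in cWT H3K27ac, and 38.5% and 42.5% in cKO Pol II. Members were thus listed more often than genes at large, while the listed ones were spread over these 3 lists much as other listed genes were.

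The smaller lists held few members. In cKO Pu.1 there were 4 (7.84%, against 4.28% of genes), in cWT H3K4me3 there were 5 (9.8%, against 4.21%) and in cKO H3K4me3 there were 3 (5.88%, against 6.72%). The cKO H3K27ac list held 3 members (5.88%, against 3.72%) and the cWT Pol II list held 2 (3.92%, against 1.82%). With the gene span alone, cKO Pu.1 and cKO H3K27ac each held 1 member (1.96%), below the 2.6 and 2.58% of genes, so these gaps turned with the joining rule. With regions at or below the median p of their list, cKO Pu.1 was again below (1.96 against 2.26%). For cKO H3K4me3, members lay above the background with the gene span alone (5.88 against 5.27%). They also lay above it with the nearest end alone (5.88 against 5.64%) and with that p filter (3.92 against 3.42%). With regions of at least 300 bp (1.96 against 5.4%) and under the remaining joining rules they lay below it. No member had a region in cWT Pu.1 (background 0.169%) or in cWT Pol II Ser5P (background 0.612%), lists of 44 and 127 regions. Of the 39 listed members, 16 (41%) were in 1 list, against 43.4% of all listed genes, 14 (35.9%) in 2, against 30.9%, and 5 (12.8%) in 3, against 16.6%. In 4 or more lists there were 4 members (10.3%), against 9.14% of listed genes and 4.02% of all genes.

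**Figure D1:**
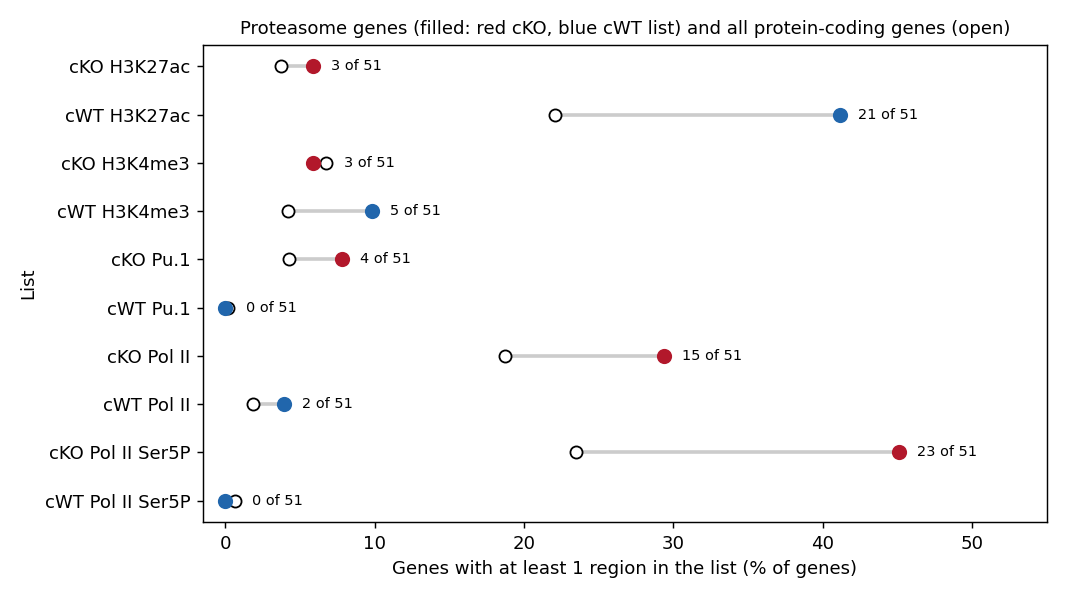
The horizontal axis gives the percentage of genes with at least 1 region in each list, for the 51 proteasome genes (filled points, red for cKO lists and blue for cWT lists) and for all 21887 protein-coding genes (open points). The widest gaps are in cKO Pol II Ser5P (45.1 against 23.5%) and cWT H3K27ac (41.2 against 22.1%), and cKO H3K4me3 is the list with regions at members in which they lie below the background.

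For H3K27ac, Pol II, Ser5P and Pu.1, members lay mostly in the genotype that held most of the antibody's regions, and for H3K4me3 they did not. For H3K27ac, 18 of the 21 members with a region had cWT regions only (background 84.3%), 3 had regions of both genotypes (Psma1, Psmb3 and Psmd4) and none had cKO regions only. For Pol II, 15 of 17 had cKO regions only (background 90.8%), and the other 2, Psma2 and Psmd10, had cWT regions only. All 23 members with a Ser5P region had cKO regions only (background 97.4%), and so did all 4 with a Pu.1 region (background 96.2%). For H3K4me3, 3 of 8 members were in cKO only (background 58.9%) and 5 (62.5%) in cWT only (background 34.5%), the opposite order to genes at large, on 8 members. Counted by region, the cKO share was 11.5% of 26 for H3K27ac (95% exact Clopper-Pearson interval 2.45 to 30.2%, for the counting of regions only), where 10.8% of all H3K27ac regions were cKO-specific. It was 89.5% of 19 for Pol II (66.9 to 98.7%; all regions 92.2%) and 100% of 30 for Ser5P (88.4 to 100%; all regions 98%). For H3K4me3 it was 37.5% of 8 (8.52 to 75.5%), an interval that includes the 61.5% over all regions.

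**Figure D2:**
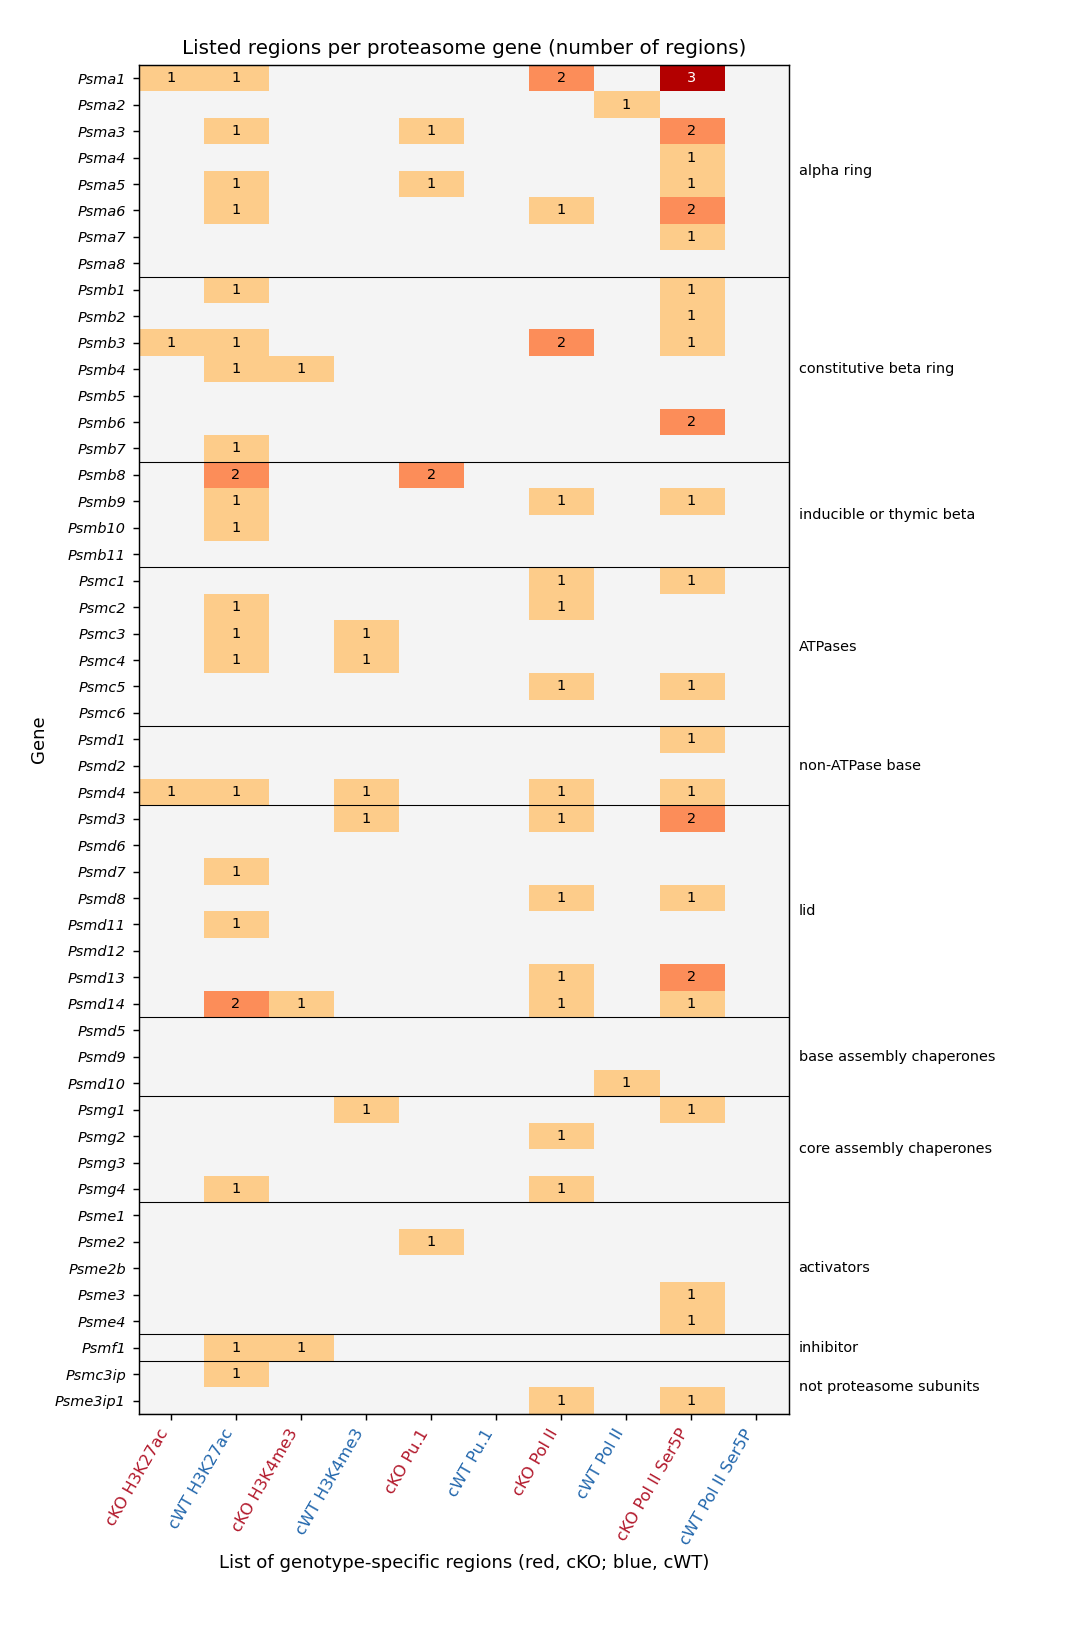
Each row is a proteasome gene, grouped by role, and each column a list (red labels, cKO; blue labels, cWT); the number and colour of a cell give the regions of that list at the gene. Most filled cells lie in the columns cWT H3K27ac (21 genes), cKO Pol II (15) and cKO Pol II Ser5P (23), and 12 rows are empty.

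Counts per subgroup, here and below, are small and can be read against the 76.5% of members and 44.0% of all genes in any list. The alpha ring, whose subunits form the gate of the core, had 21 regions at 7 of its 8 genes. Psma8, the testis form, had none. Psma5 had regions of 3 lists over its start: cKO Pu.1 at chr3:108256833-108257391 (deposited signal 14.5), cKO Ser5P at chr3:108256957-108257393 (10) and cWT H3K27ac at chr3:108256963-108257602 (14.8). Signal, as the authors deposited it, has no stated scale and is used only to rank regions within a list, where these stood at percentiles 63.2, 41 and 77.2. The 3 overlapped one another, with midpoints 186, 249 and 356 bp downstream of the start, and no other gene shared them.

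At Psma3, a cKO Pu.1 region (chr12:70968663-70968948) overlapped 2 abutting cKO Ser5P regions (chr12:70968302-70968692 and chr12:70968693-70969002, both with signal 16.1). Their midpoints lay 436 to 786 bp upstream of the gene span, and farther from the start for which RefSeq gives a promoter sequence, which lies inside the span. Psma6 has 2 annotated starts, and its cKO Pol II (chr12:55398565-55399119) and Ser5P (chr12:55398547-55399084) regions were centred 17 bp after and 10 bp before the inner one, 14.6 kb from the nearest end of the span. Its cWT H3K27ac region (chr12:55389700-55389905) lay 5580 bp inside the outer start.

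Psma4 and Psma7 each had 1 cKO Ser5P region at the start, shared with neighbouring genes. Psma2 was the alpha gene with a cWT polymerase region, at chr13:14613110-14613417, centred 22 bp after the start and shared with Mrpl32. Psma1 had 7 regions in 4 lists, more than any other member, yet all lay 21.2 to 41.5 kb upstream of its start and belonged to it only as the nearest gene end. They were cWT H3K27ac at chr7:114297181-114297477, cKO H3K27ac at chr7:114311262-114311648, cKO Pol II at chr7:114316461-114316804 and chr7:114317403-114317686, and cKO Ser5P at chr7:114297271-114297686, chr7:114301395-114301827 and chr7:114317298-114317881.

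The constitutive beta ring, which holds the proteolytic sites of the standard core, had 13 regions at 6 of 7 genes. Psmb3, a structural beta subunit, had 5 of them in 4 lists, all within 530 bp of its start and all shared with Pcgf2, the gene beside it. Both genotypes had an H3K27ac region there: the cWT region (chr11:97702794-97703319, signal percentile 94.8) lay upstream of the start, and the cKO region (chr11:97703415-97703935, percentile 68.1) lay across and downstream of it, without overlap. The cKO Pol II pair (chr11:97702656-97703153 and chr11:97703154-97703582) and the cKO Ser5P region (chr11:97702856-97703372) each overlapped the cWT H3K27ac region.

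Of the 3 catalytic genes of the standard core, Psmb5 had no region, Psmb6 had 2 cKO Ser5P regions (chr11:70525318-70525616 at the start and chr11:70528815-70529125 beyond the other end), and Psmb7 had 1 cWT H3K27ac region (chr2:38643521-38643903). Psmb1 had cKO Ser5P at chr17:15498061-15498477 and cWT H3K27ac at chr17:15499400-15500117, both shared with Tbp, which encodes the TATA-binding protein. Psmb2 had a cKO Ser5P region (chr4:126677657-126678067, percentile 86.8). Psmb4 had a cKO H3K4me3 region at its start (chr3:94886607-94886876) and a cWT H3K27ac region 4.51 kb upstream.

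The inducible catalytic genes each had cWT H3K27ac regions, from a list that held 41.2% of members and 22.1% of all genes. Psmb8 and Psmb9 lie in the MHC cluster of chromosome 17, with Tap1 between them and Tap2 on the far side of Psmb8. The products of Tap1 and Tap2 carry peptides into the endoplasmic reticulum. Psmb9 had a cWT H3K27ac region beyond its far end (chr17:34180751-34181081, percentile 97.1, second among the member regions of that list after one at Psmc4). Just upstream of its start it had cKO regions of Pol II (chr17:34187452-34187729, signal 15.9) and Ser5P (chr17:34187477-34187737, signal 7.35), which overlapped each other and also belonged to Tap1. Psmb8 had cWT H3K27ac regions near its start (chr17:34198330-34198702) and beyond its far end (chr17:34202523-34202825). The second of these overlapped a pair of abutting cKO Pu.1 regions (chr17:34202161-34202700 and chr17:34202701-34203123, both with signal 13.6), which also belonged to Tap2. Psmb8 had no polymerase region in any list. Psmb10, on chromosome 8, had 1 cWT H3K27ac region (chr8:105937260-105937717), shared with Lcat, and no polymerase region. The thymic gene Psmb11 had no region.

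The ATPases of the base, which unfold substrates, had 10 regions at 5 of 6 genes, and only Psmc6 had none. Psmc3 and Psmc4 had overlapping cWT regions of H3K27ac and H3K4me3 and no polymerase region: at Psmc3 these were chr2:91053934-91054312 and chr2:91053946-91054403, and at Psmc4 chr7:28049704-28050105 and chr7:28049809-28050093. The Psmc4 H3K27ac region stood at percentile 98.2 of its list by signal, the highest of all member regions. Psmc1 and Psmc5 had overlapping cKO regions of Pol II and Ser5P and no histone mark region. Those of Psmc5 lay on its start (chr11:106256116-106256391 and chr11:106255868-106256396), and those of Psmc1 lay 10 kb upstream. Psmc2 had a cWT H3K27ac region (chr5:21784675-21785409) overlapping a cKO Pol II region (chr5:21784694-21785208).

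In the rest of the base, Psmd4, the ubiquitin receptor of the cap, had 5 regions in 5 lists, the most lists of any member. Those at its start were a cWT H3K4me3 region (chr3:95042295-95042616) and a cKO H3K27ac region (chr3:95042703-95042992), centred on opposite sides of the start and not overlapping. The other 3, of cKO Pol II, cWT H3K27ac and cKO Ser5P (chr3:95027588-95027914, chr3:95027680-95028175 and chr3:95027687-95028151), overlapped one another 4.76 to 4.94 kb beyond its other end. Psmd1, a scaffold of the base, had 1 cKO Ser5P region at its start, and Psmd2 had none.

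The lid had 16 regions at 6 of 8 genes. Psmd14, the deubiquitinating enzyme of the lid, had 5 regions in 4 lists. Near its start, cKO Pol II (chr2:61711747-61712039), cKO Ser5P (chr2:61711752-61712031), cKO H3K4me3 (chr2:61711785-61712038) and cWT H3K27ac (chr2:61711762-61712043) covered nearly the same bases, with midpoints 198 to 218 bp downstream. Thus 3 cKO regions and 1 cWT region shared 1 position. A second cWT H3K27ac region lay 22.5 kb into the gene (chr2:61733845-61734605). Psmd3 had cKO Pol II and a pair of cKO Ser5P regions around its start (chr11:98682217-98682565, and chr11:98682049-98682516 with chr11:98682517-98682884), with a cWT H3K4me3 region overlapping the second Ser5P region. Psmd13 and Psmd8 had overlapping cKO Pol II and Ser5P regions at their starts, shared with Sirt3 and Catsperg1. The Psmd13 Pol II region (chr7:140881966-140882616) stood at percentile 96 by signal. Psmd7 and Psmd11 had 1 cWT H3K27ac region each. Psmd6 and Psmd12 had none.

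Of the 7 assembly chaperones 4 were listed. Of the base chaperones, Psmd5 and Psmd9 had no region, and Psmd10 had 1 cWT Pol II region, 41.8 kb from the gene (chrX:140998351-140998597) and also given to Atg4a. Of the core chaperones, Psmg1 had overlapping cWT H3K4me3 and cKO Ser5P regions at its start (chr16:95990583-95991103 and chr16:95990697-95990924). Psmg2 had a cKO Pol II region with the highest signal percentile of the member Pol II regions, 96.3, at a start beside Cep76. Psmg4 had a cKO Pol II region at its start (chr13:34163032-34163325) and a cWT H3K27ac region 14.7 kb upstream. Psmg3 had none.

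The activators replace or join the cap and open the gate. Psme2, a subunit of the interferon-inducible activator, had 1 region, of cKO Pu.1 (chr14:55591191-55591441, signal 11.9), upstream of its start and shared with Rnf31. Its partner Psme1 and the related Psme2b had none. Psme3 and Psme4 each had 1 cKO Ser5P region over the start, at chr11:101315945-101316739 and chr11:30771435-30772444. The Psme4 region, 1010 bp wide, was the widest of all member regions. Psmf1, the inhibitor, had overlapping regions of cWT H3K27ac (chr2:151740814-151741236) and cKO H3K4me3 (chr2:151740819-151741250), 285 and 276 bp after an annotated start that lies inside its span. Of the symbols that are no subunits, Psmc3ip had 1 cWT H3K27ac region and Psme3ip1 had cKO Pol II and Ser5P regions.

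Member regions lay close to gene ends. Of the 88, 50 touched the gene span, 21 more lay within 2 kb of it, and 17, at 8 genes, were given by the nearest end alone, 3.72 to 41.8 kb away. Just inside the 2 kb limit were the Psmb1 H3K27ac region (midpoint 1482 bp from the end) and a Psmb8 Pu.1 region (1458 bp). Just outside were the Psma3 H3K27ac region (3.72 kb) and the Psmb4 H3K27ac region (4.51 kb). Psma1, Psmc1 and Psmd10 had distant regions only. In all, 64 of 88 (72.7%) lay on or within 2 kb of an end of their gene, against 50.9% for all pairs of region and protein-coding gene. The share was 76.7% in cKO Ser5P (all pairs 58.7%), 70.6% in cKO Pol II (55.6%) and 60.9% in cWT H3K27ac (34.8%). Of 76 regions at genes with a RefSeq start, 46 were centred within 500 bp of one, 29 of them downstream. At least 1 region touched the promoter window of 21 of the 43 members with a promoter sequence (48.8%), against 25.9% of 17492 genes.

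**Figure D3:**
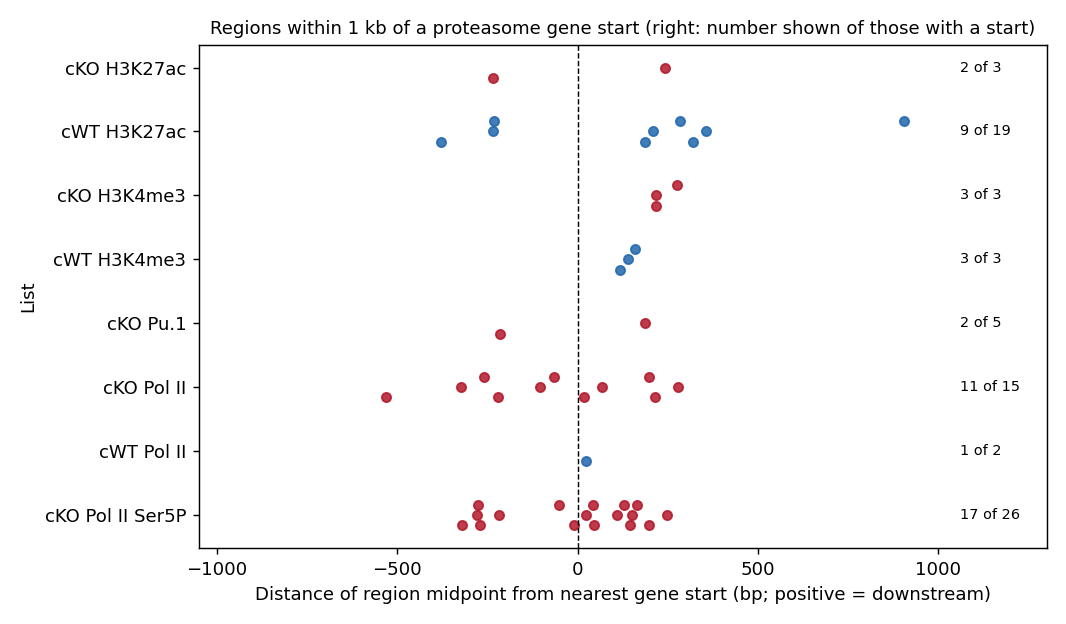
The horizontal axis is the distance in bp of each region's midpoint from the nearest annotated start of its proteasome gene, positive downstream, for regions within 1 kb; rows are lists (red, cKO; blue, cWT). Of 76 regions with a start, 48 are shown; the H3K4me3 midpoints all lie downstream, and those of cKO Pol II and Ser5P lie on both sides.

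Neighbouring genes bear on these counts. Proteasome genes were short, with a median span of 11.6 kb against 17.2 kb for all protein-coding genes, and 34 of the 88 regions (38.6%) also belonged to another protein-coding gene, against 14.3% of all assigned regions. Which gene such a region serves was not tested. Regions that belonged to no other gene were left at 22 members, among them Psma5, Psma6, Psmb2, Psmc3, Psmc4, Psmd1, Psmd3, Psmd4, Psmd14, Psme3 and Psme4. No share over all genes was taken for this count. Whether members were listed more often than genes at large without shared regions was therefore not tested. Some regions were also split: 5 pairs in the group abutted base to base with the same deposited signal (at Psmb3, Psmd3, Psma3, Psmd13 and Psmb8), as did all 563 abutting pairs over the lists. The members of such a pair are not independent.

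The next question was how the antibodies coincided at proteasome genes. For cKO Pol II and cKO Ser5P, 12 members had both, 3 had Pol II only (Psmc2, Psmg2 and Psmg4) and 11 had Ser5P only. That is 80% of the members with cKO Pol II (67.4% over all genes) and 52.2% of those with cKO Ser5P (53.7% over all genes). The second share lies near that of all genes. At all 12 members with both, the regions overlapped. The matching share over all genes with both was not taken. Over the whole lists, 64.4% of cKO Pol II and 55.3% of cKO Ser5P regions overlapped a region of some other antibody. Of the 21 members with a cWT H3K27ac region, 11 (52.4%) also had a cKO polymerase region somewhere at the gene, against 56.5% of all genes with a cWT H3K27ac region, and 10 had none. Of those 10, Psmc3, Psmc4, Psmb4, Psmf1 and Psmb8 had H3K4me3 or Pu.1 regions. Counting only genes listed in a single genotype for each antibody, 5 of 51 members had cWT H3K27ac with cKO Pol II (background 7.16% of genes) and 6 of 51 had it with cKO Ser5P (background 8.56%). Over all members, whether or not H3K27ac was listed in a single genotype, cWT H3K27ac regions overlapped cKO polymerase regions at Psmb3, Psmc2, Psmd14 and Psmd4 for Pol II, and at Psma1, Psma5, Psmb3, Psmd14 and Psmd4 for Ser5P. In all, 54 of 88 member regions (61.4%) overlapped a region of another antibody, against 44% of all listed regions. The shares were 36.7 and 33.1% with regions at or below the median p of their list, and 48.4 and 35.4% with regions of at least 300 bp. In the labelled protocol the antibodies to Pol II, Ser5P and H3K27ac carry 1 and the same catalogue number, and those to H3K4me3 and Pu.1 share another. The part of this in the lists and overlaps was not tested.

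The deposited p-values of member regions were high, as they were across the lists. None had a deposited p-value under 0.05, which 169 of the 22399 regions had. The lowest was 0.0637, at a Psma6 Ser5P region 28.5 kb from the gene (chr12:55446538-55447346), with an adjusted value of 0.65. These p-values are the authors' deposited ones, and the hypothesis they test is not stated in the labels or the lists. By signal, the median percentile of member regions was 76.1 in cKO Ser5P, 67 in cKO Pol II and 56.3 in cWT H3K27ac. By p-value, with 100 as the lowest p, the medians were 55.1, 53.2 and 45.4. Ser5P regions at members ran from percentile 2.08 (Psmd8) to 93.2 (Psma6), so the group covered nearly the whole range of the list. Median widths were 416 bp in cKO Ser5P (whole list 369 bp), 344 bp in cKO Pol II (353 bp) and 374 bp in cWT H3K27ac (435 bp).

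**Figure D4:**
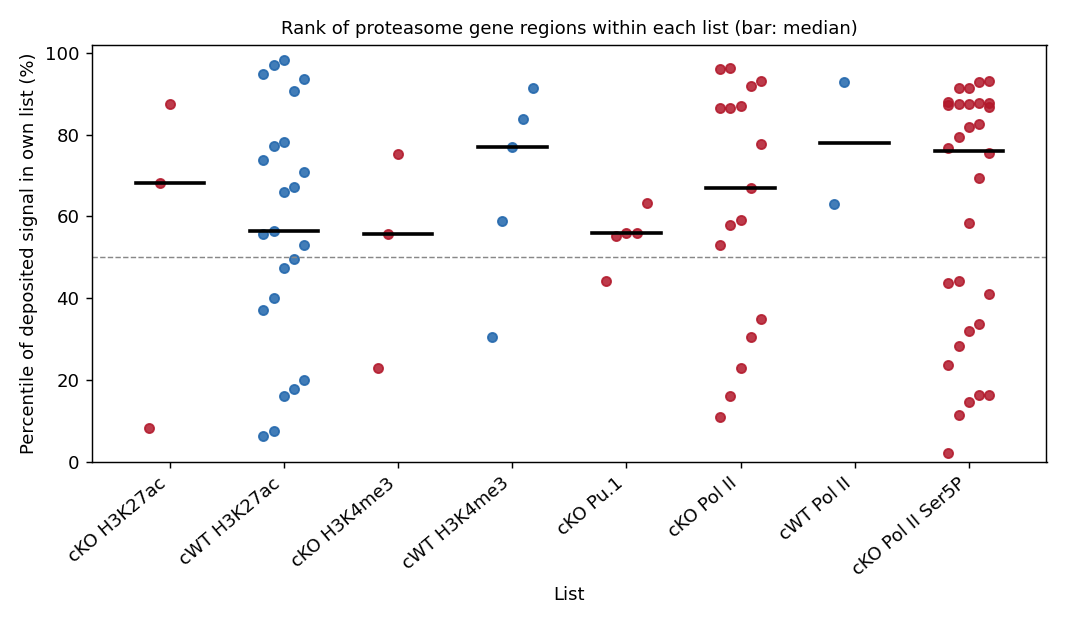
The vertical axis is the percentile of each member region's deposited signal within its own list, by list (red, cKO; blue, cWT), with a bar at the median and a dashed line at the middle of the list. Medians are 76.1 in cKO Pol II Ser5P, 67 in cKO Pol II and 56.3 in cWT H3K27ac, and points spread from near the bottom to near the top in these 3 lists.

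Motifs were sought on both strands of the 47 promoter windows of 43 members and of the 21263 windows of all protein-coding genes. A match describes letters only. The ETS letters CCGGAAG were in 17 member windows (36.2%), against 11.6% of all windows, Psmd4 and Psmd13 among them. TGANNNNGC, the core of the antioxidant response element read by Nfe2l1 and Nfe2l2, was in 27 (57.4%, against 41.7%), including those of Psmb3 and Psmb9 printed above. The core of the interferon-stimulated response element, written as GAAA, any 2 bases and GAAA again, was in 5 (10.6%, against 3.35%): Psmb3, Psmd4, Psmd9, Psme1 and Psmg4. In Psmb9 the antioxidant core, at bases -60 to -52 from the start, ran into the Sp1 letters GGGCGG at -55 to -50. GGGCGG was in 25 windows (53.2%, against 46.2%) and CCAAT in 16 (34%, against 38.2%). Member windows had a median GC content of 57.3%, against 56.3%.

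The Pu.1 letters GAGGAAGT were in 3 member windows (6.38%, against 3.13%), of Psma6, Psmc1 and Psmc2. None of these had a listed Pu.1 region. Of the members with Pu.1 regions, Psma5 and Psme2 had them partly on the promoter window, which lacks these letters. The rest of the Psma5 and Psme2 regions lay outside the window, as did the whole of those of Psma3 and Psmb8. No sequence was searched there, so it is not known whether these regions hold the letters. GCAATAA holds the letters that pair with the first base of miR-137-3p and with its seed except base 8. It was in 2 windows (4.26%, against 1.85%). The windows belong to Psmc5, at bases -230 to -224 in the sequence above, and Psme1, which had no region. At Psmc5 the letter before the match is t, which does not pair with base 8. At Psme1 the match lay on the strand opposite to the gene.

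The rest of the pathway was taken from a list of 50 symbols, of which 49 matched and 38 (77.6%) had a region, against 44.0% of all protein-coding genes. The subgroup counts below are small and can be read against that share. The cKO Ser5P list held 20 of them (40.8%), cKO Pol II 18 (36.7%) and cWT H3K27ac 15 (30.6%), against the backgrounds of 23.5, 18.7 and 22.1% given above. All 6 genes of ubiquitin and its activation were listed. Of the 10 proteasome-bound proteins 7 were listed: Sem1, the small lid subunit, and Pomp, which guides core assembly, had cKO Pol II and Ser5P regions, and Adrm1, a ubiquitin receptor, had none. Shuttles were listed at 6 of 7 genes. Of Vcp, the segregase that pulls ubiquitinated proteins out of complexes, and its 5 partners, 4 partners were listed and Vcp was not.

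Among factors that control proteasome gene transcription 7 of 8 were listed (background 44.0%), 6 of them in cWT H3K27ac (background 22.1%). Nfe2l2 had 8 regions in 4 lists, 2 of them cKO Pu.1 regions (chr2:75704508-75704937 and chr2:75731338-75731583), the second overlapping a cKO Ser5P region. Most of the Nfe2l2 regions lay more than 2 kb from its span and belonged to it only as the nearest gene end. Among these were the second Pu.1 region and the cWT H3K27ac region (chr2:75763236-75763783). Bach1, a repressor at the same sites, had 9 regions in 4 lists, some of them also given by the nearest end alone. Nfe2l1, the factor known for restoring proteasome gene transcription when the protease is blocked, had none.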

How the data were processed

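CUT&Tag was run on sorted microglia of 2 genotypes with 5 antibodies, 30 samples in 10 groups, per the labels' protocols, although the series is titled ChIP-seq. The submitters' processing notes name HOMER 4.11, bedtools 2.30.0, Bowtie2 2.4.4 and MACS2 2.2.7.1, with the build mm10 (GRCm38). They assign no role to a tool, and neither the combining of replicates nor the rule that made a region genotype-specific is stated. The deposited lists give for each region a score from 1 to 1000, a signal value on an unstated scale, and a p-value with an adjusted value (q-value). No depth, count or replicate value was analysed, so no test was run, and exact Clopper-Pearson 95% intervals cover the counting of regions only.

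Regions were joined to RefSeq protein-coding genes by span extended by 2 kb or by nearest end within 100 kb, and starts were taken from RefSeq promoter windows (250 bases before to 50 after), which 43 members had. The code that joins regions to genes and the motif search were tested on simulated data, and the code for counts, shares and overlaps was not. Python 3.11.15, numpy 2.4.6, pandas 2.3.3, scipy 1.17.1 and matplotlib 3.10.9 were used. Members, gene lists and counts were chosen with earlier results of these data known. Coordinates were to be printed for members in 4 or more lists, with a Pu.1 region or with a cWT region of Pol II, Ser5P or Pu.1, for the inducible and thymic beta genes, for the activators, and for the 2 members with most regions per list. Other coordinates, and the 6 promoters, were chosen after their values were seen. Of the pathway symbols, Paaf1 had no match. The values of some single genes are not reported here. Alternatives changed the joining rule, the regions used, the gene-end window, the overlap, the merging of regions, the members and the background.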

Additional observations from a re-analysis of the deposited data

How the results depend on the processing

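No paired analysis was possible because the lists hold no value per replicate, and for the same reason no replicate could be left out. Of 389 values under an alternative, 303 stayed within 1.5 times or the interval of the value reported and 86 moved; the cause was not tested, beyond what fewer regions or genes imply by construction. No value moved when regions within 1 kb were merged, with a gene-end window of 1 kb, with a stricter overlap between regions, or without Psmc3ip and Psme3ip1. Giving a gene to the genotype with more regions could change no member, since Psma1, Psmb3 and Psmd4 each had 1 H3K27ac region of each genotype.

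In the lists cWT H3K27ac, cKO Pol II and cKO Ser5P the member share stayed above the share of all genes under each joining rule and region filter, but not those of cKO Pu.1 and cKO H3K27ac, and among listed genes cKO Pol II members lay below (38.5 against 42.5%). With the gene span alone, members with a cWT H3K27ac region numbered 12 (23.5%, against 16% of genes), and 1 each had cKO H3K27ac, cKO Pu.1 and cWT Pol II regions. Single-genotype counts were then 1 for H3K27ac in cKO, 1 for Pol II in cWT and 1 for Pu.1 in cKO. Members with cWT H3K27ac and cKO Pol II numbered 2, and those with cKO Ser5P 3. For these counts, here and in the settings below, no share over all genes was taken. Whether they fell along with that share was not tested. Pathway genes with cKO H3K4me3 or cKO Pu.1 numbered 1 each. The background was 0.0777% for cWT Pu.1 and 2.6% for cKO Pu.1. With the span extended by 2 kb only, the cWT Pu.1 background was 0.0959%, and 1 member had cWT Pol II, 1 cKO H3K27ac only and 1 cWT Pol II only. With nearest ends within 10 kb, 1 member had cWT Pol II, and 1 had it alone. With the nearest end alone, 3 members had cWT H3K27ac with cKO Pol II, and 1 pathway gene each had cKO H3K4me3 and cKO Pu.1.

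With regions at or below the median p of their list, members numbered 10 in cWT H3K27ac, 9 in cKO Pol II, 13 in cKO Ser5P, 1 in cKO Pu.1 and 1 in cWT Pol II. Single-genotype counts were 9 (H3K27ac, cWT), 1 (H3K27ac, cKO), 9 (Pol II, cKO), 1 (Pol II, cWT), 13 (Ser5P, cKO) and 1 (Pu.1, cKO). Members with cWT H3K27ac and cKO Pol II numbered 2, and with cKO Ser5P 0. Backgrounds were 14.4% (cWT H3K27ac), 2.04% (cKO H3K27ac), 3.42% (cKO H3K4me3), 2.15% (cWT H3K4me3), 2.26% (cKO Pu.1), 0.0777% (cWT Pu.1), 10.9% (cKO Pol II), 0.937% (cWT Pol II), 14.1% (cKO Ser5P) and 0.311% (cWT Ser5P). Gene-end shares were 100% for cKO H3K27ac, cKO Pol II and cWT Pol II, and 36.7% of member regions overlapped another antibody (33.1% of all). Pathway genes numbered 8 in cWT H3K27ac, 9 in cKO Pol II and 0 in cKO H3K4me3, cKO Pu.1, cWT Pol II and cWT Ser5P.

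With regions of at least 300 bp, members numbered 9 in cKO Pol II (17.6%, against 14.3% of genes) and 1 in cKO H3K4me3 (1.96%, against 5.4%). They numbered 1 in cWT Pol II (1.96%) and 2 in cKO Pu.1 (3.92%). Counts for a single genotype were the same (9, 1, 1 and 2), with 1 for H3K27ac in cKO. Members with cWT H3K27ac and cKO Pol II numbered 2, and with cKO Ser5P 3. Backgrounds were 0.0183% (cWT Pu.1), 2.15% (cKO Pu.1), 1.08% (cWT Pol II) and 0.329% (cWT Ser5P). Gene-end shares were 0% for cKO H3K4me3 and 100% for cWT Pol II, 48.4% of member regions overlapped another antibody (35.4% of all), and 0 pathway genes had cWT Pol II. A gene-end window of 5 kb gave 82.6% for cWT H3K27ac and 100% for cKO H3K4me3. Over genes with a region in any list, the background was 50.2% (cWT H3K27ac), 8.45% (cKO H3K27ac), 15.3% (cKO H3K4me3), 9.57% (cWT H3K4me3), 9.72% (cKO Pu.1), 0.384% (cWT Pu.1), 42.5% (cKO Pol II), 4.13% (cWT Pol II), 53.3% (cKO Ser5P) and 1.39% (cWT Ser5P).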

Other observations

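Genes that act after the proteasome in MHC class I antigen processing were listed at 8 of 12 (44.0% of all protein-coding genes were listed). Tap1 and Tap2, the peptide transporter genes, shared all 3 and 3 of 4 of their regions with Psmb8 or Psmb9; the remaining Tap2 region was of cWT H3K27ac (chr17:34204550-34205002). B2m, the light chain of MHC class I, had a cKO Pol II region (chr2:122148260-122148581), and Tapbp, which loads peptides, had another (chr17:33919434-33919757). Of the heavy chain genes, H2-D1 had 2 cKO Ser5P regions. H2-K1 had a Ser5P region of each genotype, cKO at chr17:33997014-33997543 and cWT at chr17:33998914-33999249. These heavy chain genes are related in sequence, and how reads matching more than 1 of them were placed is not stated. Calr, a chaperone of class I assembly, had overlapping cWT H3K27ac (chr8:84840259-84841039) and cKO Ser5P (chr8:84840427-84840760) regions. Nlrc5, the transactivator of class I genes, had none.

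The microglial marker genes Csf1r, Cx3cr1, P2ry12, Sall1 and Tmem119 each had listed regions. Of the neuronal markers 0 of 2 had any, of the astrocyte markers 1 of 3 (Slc1a2, 2 regions), of the oligodendrocyte markers 2 of 3 (Mbp and Mog, 10 regions) and of markers of other immune cells 2 of 5 (Ccr2 and Mrc1, 8 regions). These counts are small and can be read against the 44.0% of all protein-coding genes with a region in any list. The lists hold differences between genotypes, not levels, so they do not measure the purity of the sort, and the part of other cells in the results was not tested.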
